A study of Mus musculus with 12 samples.

Results

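The 6 genes described here, of 32246 rows in the deposited expression table, handle zinc in the cell: the metallothionein genes Mt1 and Mt2, the zinc sensor gene Mtf1, the zinc exporter gene Slc30a1 and the zinc importer genes Slc39a10 and Slc39a14. They were picked by gene symbol, and each symbol matched 1 row. All 6 were among the 11165 genes that passed the filter on low values (1 FPKM or more in 4 or more libraries). FPKM is the fragment count per kilobase of the gene's deposited length, scaled to the total counted in the library. Total RNA was sequenced from macrophages grown out of mouse bone marrow for 7 days in GM-CSF at 50 ng/mL, a cytokine that drives myeloid differentiation. There were 3 groups of 4 libraries. In the first, cells received for 24 h plasminogen (PLG, the precursor of the protease plasmin) that had been in contact with EACA and RNases (PLG+EACA+RNase). In the second, they received for 24 h plasminogen that had been in contact with EACA, epsilon-aminocaproic acid, a lysine analogue (PLG+EACA). The third was left untreated. The labels give no mouse strain, sex, genotype or age and leave unsaid which animals or cultures each library was made from, so p-values measure the spread between these libraries, which may be technical. No group given EACA, RNases or plasminogen alone was analysed here, so their shares in any change over untreated cells cannot be told apart. Between the treatments, an effect of RNases on the plasminogen and one of RNases on the cells cannot be told apart either.

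Zinc in the cytosol is held low by proteins with separate roles. Metallothioneins are small proteins rich in cysteine that bind zinc, copper and cadmium. SLC30 proteins, the ZnT family, carry zinc out of the cytosol, and SLC39 proteins, the ZIP family, carry it in. MTF-1, encoded by Mtf1, is a zinc-finger transcription factor that binds metal response elements when zinc rises; in the mouse it is known to switch on Mt1, Mt2 and Slc30a1 and to repress Slc39a10. Metallothionein genes and Slc39a14 are also known to be induced in inflammation.

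Depth ran from 12940889 to 22677043 counted reads per library, as worked out from the smallest steps between FPKM values. The untreated libraries stood apart on the first principal component, and replicate 4 was the lowest of each treatment on the second (3.54 against 12.6 to 27.2 for PLG+EACA+RNase, and -30.4 against -10.3 to -7.26 for PLG+EACA). The values carry no scaling between libraries beyond that to each library's total. The median of all genes tested lay at -0.20 on the log2 scale for PLG+EACA+RNase against untreated cells and -0.26 for PLG+EACA against untreated cells. It was 0.04 for PLG+EACA+RNase against PLG+EACA. The noncoding RNA Gm26917 took 13.9% ± 0.92 of counted reads with PLG+EACA+RNase, 12.4% ± 1.4 with PLG+EACA and 11.05% ± 0.73 in untreated cells (mean ± SD, n = 4), and leaving it out changed no call of the 6 genes. Mitochondrial mRNA took 0.436% ± 0.035 with PLG+EACA+RNase, 0.559% ± 0.065 with PLG+EACA and 0.671% ± 0.044 in untreated cells, whose part in the results was not tested. The 8 macrophage genes of the list (Adgre1, Csf1r, Cd68, Lyz2, Mertk, Itgam, Fcgr1, Mrc1) were above 0 in each group and summed to 3974 FPKM or more in each library, most of it Lyz2. Of these 8, 2 were called higher and 4 lower with PLG+EACA+RNase, and 3 higher and 4 lower with PLG+EACA. Csf1r was lower with both (limma log2 -0.80 with each, adjusted p of 3.95e-08 and 3.81e-08), and Mertk and Mrc1 were higher with both. After median-of-ratios scaling the counts were 2 higher and 1 lower with PLG+EACA+RNase, and 3 higher and 3 lower with PLG+EACA. Dendritic cell markers were also present and summed to 517 to 569 FPKM with PLG+EACA+RNase, 423 to 556 with PLG+EACA and 566 to 617 in untreated cells, most of it Itgax and Ccr7. Zbtb46, a transcription factor gene of conventional dendritic cells, averaged 5.57 FPKM with PLG+EACA+RNase, 4.66 with PLG+EACA and 3.47 in untreated cells and was called higher with both treatments (limma adjusted p of 2.43e-05 and 0.0009). Itgax went the other way and was called lower with both (limma log2 -0.32 and -0.39, adjusted p of 0.000324 and 6.39e-05), calls that ended after median-of-ratios scaling. Flt3, Cd209a and Xcr1 were below the filter, with at most 0.627, 0.78 and 0.299 FPKM in any library. Of the 5 dendritic cell markers tested, 2 were called higher, 1 lower and 2 not called with each treatment. Among all genes tested 16% and 14.9% were called higher and 48.4% and 53.4% lower. The 8 neutrophil markers summed to 110.1 to 135 FPKM with PLG+EACA+RNase, 118 to 142 with PLG+EACA and 282 to 358 in untreated cells, and that sum follows Mmp8, which fell. The median log2 change over the 4 neutrophil markers tested, Mmp8 among them, was 0.60 with PLG+EACA+RNase and 0.20 with PLG+EACA. Ltf was called higher with PLG+EACA+RNase (log2 1.18, limma adjusted p = 0.0133), with libraries that overlapped the untreated ones. Camp was not called with either treatment (log2 0.24 with PLG+EACA+RNase and -0.19 with PLG+EACA). Ngp averaged 11.1 FPKM with PLG+EACA+RNase, 10.6 with PLG+EACA and 6.72 in untreated cells, with overlapping libraries, and was not called (limma adjusted p of 0.187 and 0.27). Mpo averaged 0.853 FPKM with PLG+EACA+RNase, 0.148 with PLG+EACA and 0.0128 in untreated cells. Ly6g, which defines mature neutrophils, was at most 0.126 FPKM with PLG+EACA+RNase, at most 0.163 with PLG+EACA and at 0 in untreated cells. Lymphocyte markers summed to at most 0.504 FPKM in any library. The part of these other cells in the results was not tested.

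The promoters are shown first, so that the letters of the metal response element can be seen where they occur and where they do not. RefSeq windows of 300 bases on GRCm38.p6, from 250 before to 50 after a start site, were at hand for 5 of the 6 members, and Slc39a14 had none. The core of the metal response element was searched as TGCACNC or TGCGCNC on both strands. It occurred 3 times in the Mt1 window (chr8:94178839-94179138, plus strand), 4 times in that of Mt2 (chr8:94172368-94172667, plus strand), 2 times in that of Slc30a1 (chr1:191906531-191906830, plus strand) and 0 times in that of Mtf1 (chr4:124802299-124802598, plus strand). Neither Slc39a10 window held it, the one inside the annotated gene (chr1:46853569-46853868, minus strand) or the one upstream of it (chr1:46925727-46926026, minus strand). The neighbour Mt3, a metallothionein best known from brain, had 1 (chr8:94152357-94152656, plus strand). In bases from the start site, the Mt1 cores lay at -23 to -17, 2 to 8 and 20 to 26. Cores also lay after the start site in the windows of Mt2 (4 to 10), Slc30a1 (30 to 36) and Mt3 (27 to 33). Each sequence runs 5′ to 3′ with matches in capitals, and a match on the other strand is printed as its reverse complement.
Mt1: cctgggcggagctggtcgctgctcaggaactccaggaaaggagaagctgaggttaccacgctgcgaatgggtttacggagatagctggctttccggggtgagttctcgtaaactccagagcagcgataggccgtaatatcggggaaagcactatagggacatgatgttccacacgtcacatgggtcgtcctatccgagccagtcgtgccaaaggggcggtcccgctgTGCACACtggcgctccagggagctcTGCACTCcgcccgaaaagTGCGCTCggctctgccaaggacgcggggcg
Mt2: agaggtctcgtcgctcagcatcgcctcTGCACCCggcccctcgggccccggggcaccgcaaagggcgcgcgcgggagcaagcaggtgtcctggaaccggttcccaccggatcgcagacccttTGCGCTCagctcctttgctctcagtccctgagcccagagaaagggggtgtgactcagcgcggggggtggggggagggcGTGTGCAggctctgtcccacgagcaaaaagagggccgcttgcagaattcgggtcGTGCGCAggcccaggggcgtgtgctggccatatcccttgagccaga
Mt3: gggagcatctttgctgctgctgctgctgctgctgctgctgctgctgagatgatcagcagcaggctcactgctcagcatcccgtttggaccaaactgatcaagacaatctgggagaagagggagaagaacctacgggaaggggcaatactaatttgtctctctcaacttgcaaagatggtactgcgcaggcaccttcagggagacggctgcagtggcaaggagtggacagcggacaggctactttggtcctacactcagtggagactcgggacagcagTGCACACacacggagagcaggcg
Slc30a1: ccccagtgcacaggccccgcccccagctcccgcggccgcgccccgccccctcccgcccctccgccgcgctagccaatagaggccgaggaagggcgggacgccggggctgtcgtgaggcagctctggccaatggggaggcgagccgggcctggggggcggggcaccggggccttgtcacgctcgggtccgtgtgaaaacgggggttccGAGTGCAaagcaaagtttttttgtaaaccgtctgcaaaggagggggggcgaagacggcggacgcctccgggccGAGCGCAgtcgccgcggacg
Slc39a10 (window inside the gene): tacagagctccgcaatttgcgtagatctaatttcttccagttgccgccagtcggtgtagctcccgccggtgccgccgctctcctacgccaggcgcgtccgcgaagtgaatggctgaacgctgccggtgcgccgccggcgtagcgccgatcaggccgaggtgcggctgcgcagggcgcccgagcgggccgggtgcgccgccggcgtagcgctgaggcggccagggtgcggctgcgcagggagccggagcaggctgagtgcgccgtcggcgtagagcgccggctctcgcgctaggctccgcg

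Of all 32851 windows of this length, 25.7% held at least 1 such core, 7.11% at least 2, 1.97% at least 3 and 0.517% at least 4. Of the 10410 windows of genes that passed the filter, as the members did, 35.2% held at least 1, 11.1% at least 2, 3.10% at least 3 and 0.817% at least 4. The core of the antioxidant response element, searched as TGACNNNGC on both strands, was found 1 time in the Mt2 window and 1 time in that of Slc30a1, against 12.4% of all windows and 14.7% of those of the filtered genes with at least 1. A STAT site, searched as TTCNNNGAA, was found only in the upstream Slc39a10 window among the members, against 8.30% of all windows and 6.74% of those of the filtered genes. No match of one motif overlapped a match of another. A match describes the letters and shows no binding. Only these windows were searched, so sites elsewhere near the genes are not counted.

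**Figure D1:**
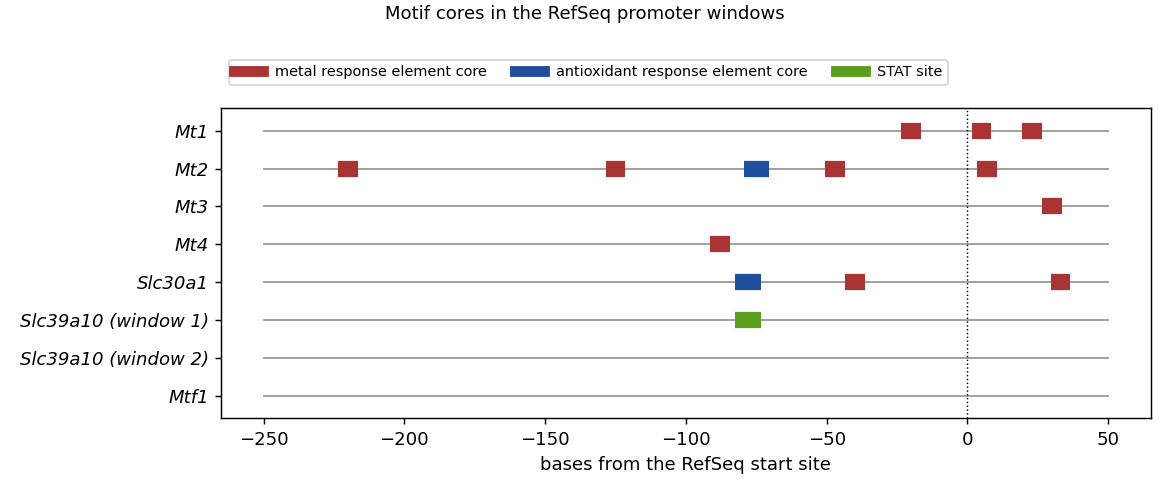
Positions of 3 motif cores in the RefSeq promoter windows of the metallothionein genes, Slc30a1, Slc39a10 (window 1 upstream of the annotated gene, window 2 inside it) and Mtf1, in bases from the RefSeq start site on the horizontal axis. Mt1 has 3 and Mt2 has 4 metal response element cores, Slc30a1 has 2, and Mtf1 and Slc39a10 have 0.

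Both metallothionein genes rose with both treatments, and Mt1 was higher still when the plasminogen had been exposed to RNases. Mt1 (ENSMUSG00000031765.8, chr8:94179082-94180327) had 181, 167, 199.5 and 156 FPKM with PLG+EACA+RNase, 129, 127, 144 and 132 with PLG+EACA, and 38.1, 36.8, 40.3 and 32.6 in untreated cells. The 3 groups did not overlap in any pair. Its 95% intervals for the log2 change over untreated cells ran from 2.06 to 2.41 with PLG+EACA+RNase and from 1.66 to 2.02 with PLG+EACA (limma on log2(FPKM + 0.5), which understates the change of weakly expressed genes). These are 4.70-fold and 3.58-fold changes of the fitted values, with Benjamini-Hochberg adjusted p of 6.49e-09 and 2.86e-08. Between the treatments, PLG+EACA+RNase stood 1.32-fold above PLG+EACA (log2 difference 0.40, SE 0.08, adjusted p = 0.00998 in limma), higher in 4 of 4 libraries than all those with PLG+EACA. By level, Mt1 was at percentile 98.1 of the genes tested with PLG+EACA+RNase, 97.5 with PLG+EACA and 90.1 in untreated cells.

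Mt2 (ENSMUSG00000031762.7, chr8:94172664-94173568) encodes the other widely expressed mouse metallothionein and was far weaker here. It had 16.4, 19.5, 16.3 and 14.0 FPKM with PLG+EACA+RNase, 13.9, 11.02, 12.3 and 9.13 with PLG+EACA, and 2.66, 1.496, 4.49 and 1.82 in untreated cells. No untreated library reached any treated one, and all 4 PLG+EACA+RNase libraries lay just above the highest PLG+EACA library. The fitted change over untreated cells was 5.79-fold with PLG+EACA+RNase (log2 2.53, SE 0.24, adjusted p = 3.15e-06) and 4.09-fold with PLG+EACA (log2 2.03, SE 0.24, adjusted p = 1.44e-05; limma). The difference between the treatments did not pass (log2 0.50, 95% interval -0.01 to 1.02, limma adjusted p = 0.147), although the groups did not overlap. The gene rests on few reads, 124 to 197 per library with PLG+EACA+RNase, 94 to 159 with PLG+EACA and 13 to 54 in untreated cells, against 677 or more for Mt1. It also overlaps the noncoding RNA gene Gm45774, which reached at most 0.406 FPKM in any library. Whether counting used the strand is not given in the sources used here.

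Mt1 was the more abundant of the pair per deposited gene length in every library. That length was 1246 bases for Mt1, its whole deposited span, and 588 for Mt2, less than its span. The ratio rests on these lengths. The ratio of Mt1 to Mt2 FPKM was 8.57 to 12.2 with PLG+EACA+RNase, 9.33 to 14.5 with PLG+EACA and 8.98 to 24.6 in untreated cells, so that the groups overlapped. Fewer cells with these transcripts and less of them per cell cannot be told apart in such bulk libraries.

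**Figure D2:**
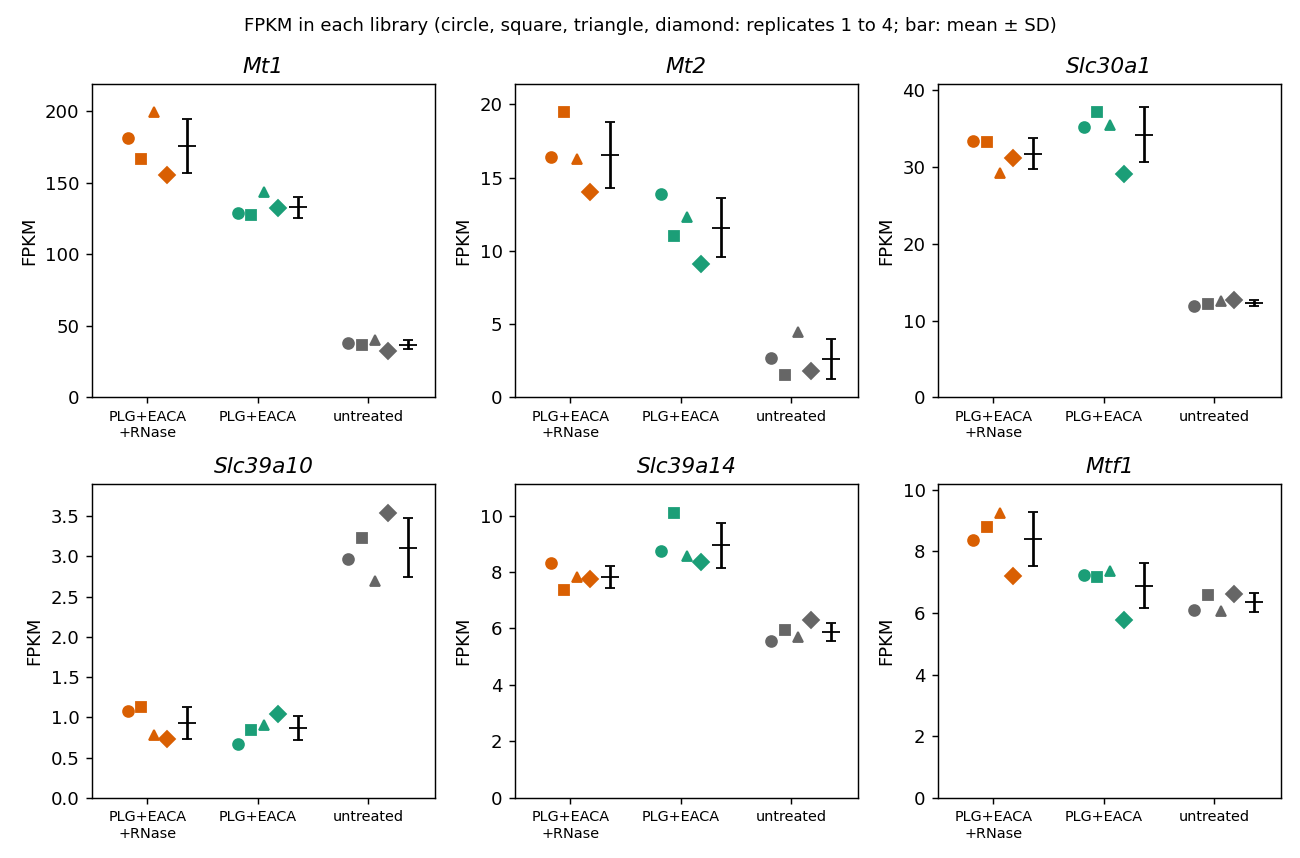
FPKM of the 6 genes in each of the 12 libraries (vertical axes, linear from 0), by group, with the mean and SD of 4 libraries as a black bar. Mt1, Mt2, Slc30a1 and Slc39a14 lie higher in all treated than in all untreated libraries and Slc39a10 lies lower (0.673 to 1.13 against 2.69 to 3.55), while Mtf1 with PLG+EACA overlaps the untreated libraries.

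The metallothionein genes lie in 1 cluster on chromosome 8, in the order Mt4, Mt3, Mt2, Mt1, with 13.6, 16.6 (from Mt3 to Gm45774) and 5.51 kb between the deposited ends and starts. Mt3 (chr8:94152607-94154146), the family's brain form, was also detected and rose. It had 7.32, 9.12, 9.06 and 6.44 FPKM with PLG+EACA+RNase, 4.04, 3.89, 4.31 and 2.89 with PLG+EACA, and 0.950, 0.635, 0.596 and 1.396 in untreated cells. The groups did not overlap in any pair, and of the metallothionein genes Mt3 had the largest fitted difference between the treatments (log2 0.99, 95% interval 0.60 to 1.37, limma adjusted p = 0.0067). Over untreated cells it was 6.18-fold higher with PLG+EACA+RNase and 3.12-fold higher with PLG+EACA (limma adjusted p of 3.59e-07 and 8.33e-06). It rests on 125 to 164 reads per library with PLG+EACA+RNase, 54 to 94 with PLG+EACA and 10 to 25 in untreated cells. Mt4, the form known from stratified epithelium, was listed at 0 in 11 libraries and held 2 reads in the other, PLG+EACA+RNase replicate 3. The next coding gene downstream, Nup93, which encodes a nuclear pore protein, fell: 7.46 FPKM on average with PLG+EACA+RNase, 7.95 with PLG+EACA and 12.2 in untreated cells (limma log2 changes of -0.67 and -0.59 over untreated cells, adjusted p of 6.13e-07 and 1.39e-06).

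**Figure D3:**
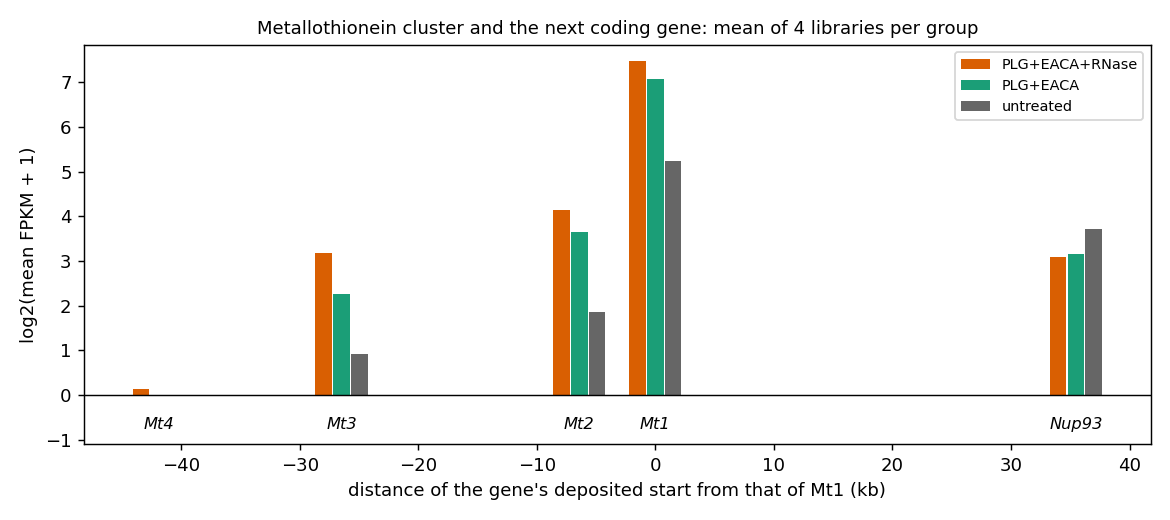
Mean FPKM of 4 libraries per group on a log2(FPKM + 1) scale (bars from 0) for the 4 metallothionein genes and Nup93, placed by the distance in kb of each gene's start from that of Mt1. Mt1, Mt2 and Mt3 stand in the order PLG+EACA+RNase, PLG+EACA, untreated, and Nup93 is highest in untreated cells.

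Slc30a1, which encodes the plasma membrane zinc exporter ZnT1, rose with both treatments. The gene (ENSMUSG00000037434.7, chr1:191906767-191913247) had 33.4, 33.2, 29.2 and 31.1 FPKM with PLG+EACA+RNase, 35.2, 37.1, 35.4 and 29.0 with PLG+EACA, and 11.9, 12.2, 12.5 and 12.7 in untreated cells. The lowest treated library, at 29.0 FPKM, lay far above the highest untreated one, at 12.7 FPKM, and the treatments overlapped each other. The fitted change over untreated cells was 2.51-fold with PLG+EACA+RNase (log2 1.33, SE 0.07, adjusted p = 8.54e-08) and 2.697-fold with PLG+EACA (log2 1.43, SE 0.07, adjusted p = 6.28e-08; limma). Between the treatments the log2 difference was -0.10, with a 95% interval from -0.26 to 0.05 (limma adjusted p = 0.326). Without PLG+EACA replicate 4, the lowest of its group, that difference was -0.18 and passed (limma adjusted p = 0.0468).

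Slc39a10, which encodes the plasma membrane zinc importer ZIP10, fell with both treatments. The gene (ENSMUSG00000025986.6, chr1:46807544-46892852) had 1.08, 1.13, 0.786 and 0.727 FPKM with PLG+EACA+RNase, 0.673, 0.846, 0.900 and 1.04 with PLG+EACA, and 2.97, 3.23, 2.69 and 3.55 in untreated cells. All 8 treated libraries lay below all 4 untreated ones, and the treatments overlapped each other. It fell by 1.34 on the log2 scale with PLG+EACA+RNase (2.53-fold, SE 0.12, adjusted p = 2.78e-06) and by 1.41 with PLG+EACA (2.65-fold, SE 0.12, adjusted p = 1.75e-06; limma). Relative to the median of all genes these changes were -1.14 and -1.15. Ranked by log2 change over untreated cells, it was number 68 from the bottom of the genes tested with PLG+EACA+RNase and number 66 with PLG+EACA. The treatments differed by 0.06 on the log2 scale (95% interval -0.21 to 0.33, limma adjusted p = 0.745), a difference that turned to -0.0031 without PLG+EACA+RNase replicate 2 and to -0.0073 without PLG+EACA replicate 1. Behind these values stand 62 to 134 reads per library with PLG+EACA+RNase, 80 to 117 with PLG+EACA and 291 to 394 in untreated cells. The gene overlaps the noncoding RNA gene Gm28151, at 0.325 to 1.06 FPKM with PLG+EACA+RNase, 0.180 to 0.431 with PLG+EACA and 0.063 to 0.387 in untreated cells. The ratio of Slc30a1 to Slc39a10 FPKM within a library was 29.4 to 42.8 with PLG+EACA+RNase, 27.9 to 52.4 with PLG+EACA and 3.59 to 4.65 in untreated cells. That ratio does not depend on the scaling between libraries.

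Slc39a14 encodes ZIP14, an importer that also carries iron and manganese and is known for its induction by IL-6 in the liver. Unlike Slc39a10 it rose. The gene (ENSMUSG00000022094.15, chr14:70303469-70351425) had 8.32, 7.36, 7.82 and 7.75 FPKM with PLG+EACA+RNase, 8.76, 10.1, 8.57 and 8.35 with PLG+EACA, and 5.57, 5.93, 5.68 and 6.30 in untreated cells. No library of one group overlapped another group, with PLG+EACA the highest and the 2 treatments nearly touching at 8.32 and 8.35. The rise over untreated cells was 1.30-fold with PLG+EACA+RNase (log2 0.38, SE 0.06, adjusted p = 0.00025) and 1.48-fold with PLG+EACA (log2 0.57, SE 0.06, adjusted p = 1.20e-05; limma). The difference between the treatments was -0.18 on the log2 scale (95% interval -0.32 to -0.04) and did not pass (limma adjusted p = 0.0632), but did after median-of-ratios scaling, which sets the median gene equal between libraries (-0.22, adjusted p = 0.0307).

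Mtf1, the gene of the sensor itself, rose with PLG+EACA+RNase, while its difference with PLG+EACA did not pass. The gene (ENSMUSG00000028890.13, chr4:124802104-124849800) had 8.38, 8.78, 9.26 and 7.19 FPKM with PLG+EACA+RNase, 7.23, 7.17, 7.35 and 5.78 with PLG+EACA, and 6.09, 6.58, 6.08 and 6.61 in untreated cells. All PLG+EACA+RNase libraries lay above the untreated ones, and it rose 1.30-fold there (log2 0.38, SE 0.09, limma adjusted p = 0.00218). With PLG+EACA the difference from untreated cells was 0.11 on the log2 scale (95% interval -0.08 to 0.29, limma adjusted p = 0.293). That value was 0.36 and passed after median-of-ratios scaling (adjusted p = 0.0013), and was 0.18 and passed without PLG+EACA replicate 4, the library at 5.78 FPKM (adjusted p = 0.0477). PLG+EACA+RNase stood 1.21-fold above PLG+EACA (log2 0.27, limma adjusted p = 0.0441) with overlapping libraries, and this call remained in 2 of the 12 fits that left out 1 library (0.19, adjusted p = 0.0982 without PLG+EACA replicate 4). Mtf1 overlaps 1110065P20Rik, at 1.59 to 2.51 FPKM on average, and a 5S ribosomal RNA copy, n-R5s192.

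Counted together against untreated cells, 5 of the 6 genes rose and 1 fell with PLG+EACA+RNase, where 16% of all genes tested were called higher and 48.4% lower. With PLG+EACA 4 rose and 1 fell, where 14.9% were called higher and 53.4% lower. After median-of-ratios scaling 5 rose and 1 fell with each treatment, where 28.4% of genes were called higher and 26.4% lower with PLG+EACA+RNase, and 27.3% and 26.4% with PLG+EACA. Libraries did not overlap for 5 genes higher and 1 lower with PLG+EACA+RNase (15% and 46.7% of all genes) and for 4 higher and 1 lower with PLG+EACA (13.8% and 50.9%). At least 2-fold and called were 4.24% of genes higher and 2.18% lower with PLG+EACA+RNase, and 3.85% higher and 2.93% lower with PLG+EACA; Mt1, Mt2 and Slc30a1 were among the higher and Slc39a10 among the lower in both. The median over the 6 genes was 0.86 with PLG+EACA+RNase and 1.00 with PLG+EACA on the log2 scale, against -0.20 and -0.26 for all genes tested. These comparisons share the untreated libraries, so the values are set side by side and not taken as separate support. Between the treatments 2 of the 6 genes, Mt1 and Mtf1, were called higher with PLG+EACA+RNase and 0 lower, where 12.1% and 8.73% of all genes were called, and the median over the 6 was 0.17 against 0.04 for all genes. After median-of-ratios scaling 2 were higher and 1, Slc39a14, lower, where 10.6% and 11.4% of all genes were called. Between the treatments the libraries of 2 genes, Mt1 and Mt2, did not overlap and were higher with PLG+EACA+RNase, and those of Slc39a14 were lower, where 10.4% and 7.68% of all genes did so.

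**Figure D4:**
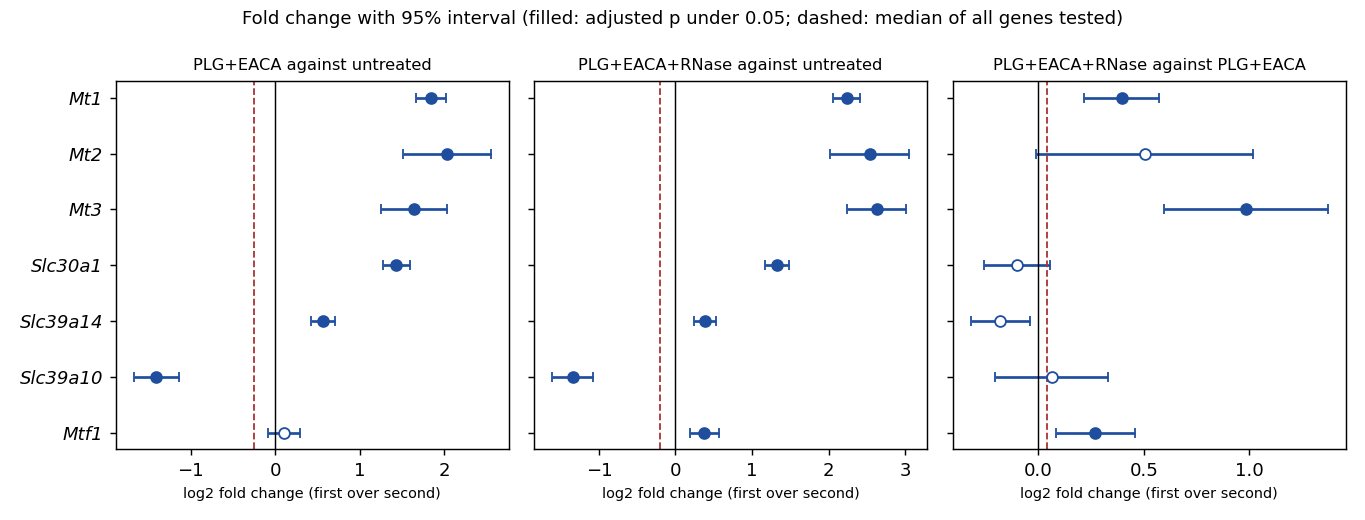
Limma log2 fold change with its 95% interval for the 6 genes and Mt3 in the 3 comparisons (horizontal axis, first group over second, own scale in each panel), with filled points for adjusted p under 0.05 and a dashed line at the median of all genes tested. Slc39a10 lies at -1.34 with PLG+EACA+RNase and -1.41 with PLG+EACA against untreated cells, while between the treatments Mt1, Mt3 and Mtf1 are filled.

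The rest of the zinc transporter families was taken from a fixed list of 10 SLC30 and 14 SLC39 genes. Of 6 SLC30 genes tested, Slc30a1 rose and 3 fell with PLG+EACA+RNase, and Slc30a1 rose and 2 fell with PLG+EACA. Of all genes tested 16% and 14.9% were called higher and 48.4% and 53.4% lower. After median-of-ratios scaling the counts were 2 higher and 1 lower with PLG+EACA+RNase and 4 higher and 0 lower with PLG+EACA, so the direction of the small changes in the exporters rests on the scale. Under that scaling 28.4% and 27.3% of all genes were called higher and 26.4% lower with each treatment. Slc30a4, an exporter into vesicles, fell with both: it averaged 8.84 ± 0.96 FPKM with PLG+EACA+RNase, 11.5 ± 1.1 with PLG+EACA and 13.3 ± 0.20 in untreated cells (mean ± SD, n = 4). Its difference between the treatments also passed (log2 -0.36, limma adjusted p = 0.0112; -0.40 relative to the median of all genes), while its decrease with PLG+EACA (log2 -0.20, limma adjusted p = 0.0363) ended after median-of-ratios scaling.

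Of 11 SLC39 genes tested, Slc39a14 rose with both treatments, while 6 fell with PLG+EACA+RNase and 8 with PLG+EACA. Of all genes 16% and 14.9% were called higher and 48.4% and 53.4% lower, so that 6 of 11 is near the share of all genes. After median-of-ratios scaling the counts were 2 higher and 5 lower with PLG+EACA+RNase, and 1 higher and 4 lower with PLG+EACA. With that scaling 28.4% and 27.3% of all genes were called higher and 26.4% lower with each treatment. Slc39a10 had the largest decrease of these importers under both scalings, followed by Slc39a13, which encodes the importer ZIP13 of intracellular membranes. Slc39a13 averaged 3.01 ± 0.55 FPKM with PLG+EACA+RNase, 2.52 ± 0.23 with PLG+EACA and 4.94 ± 0.25 in untreated cells (limma log2 changes of -0.64 and -0.85, adjusted p of 0.000113 and 1.17e-05). Slc39a1, the plasma membrane importer ZIP1, was the most abundant zinc transporter per length in each group, at 78.2 ± 1.3 FPKM with PLG+EACA+RNase, 83.6 ± 3.3 with PLG+EACA and 95.9 ± 2.5 in untreated cells. Slc39a1 fell by 0.29 and 0.20 on the log2 scale (limma adjusted p of 4.33e-05 and 0.000714), calls that ended after median-of-ratios scaling. Slc39a8, the importer ZIP8 known from inflammatory macrophages, was below the filter, at 0.411 ± 0.056 FPKM with PLG+EACA+RNase, 0.322 ± 0.026 with PLG+EACA and 0.476 ± 0.042 in untreated cells. Between the treatments 0 of the 11 SLC39 genes passed in limma, and of the 20 metallothionein and zinc transporter genes tested, Mt1 and Mt3 were higher and Slc30a4 and Slc30a7 lower. The count of lower genes was 1 in 7 of the 12 fits that left out 1 library (any of PLG+EACA+RNase replicates 1 to 3, PLG+EACA replicates 1 and 2, or untreated replicates 1 and 3), and the count of higher genes was 4 without PLG+EACA+RNase replicate 4 and without PLG+EACA replicate 3.

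**Figure D5:**
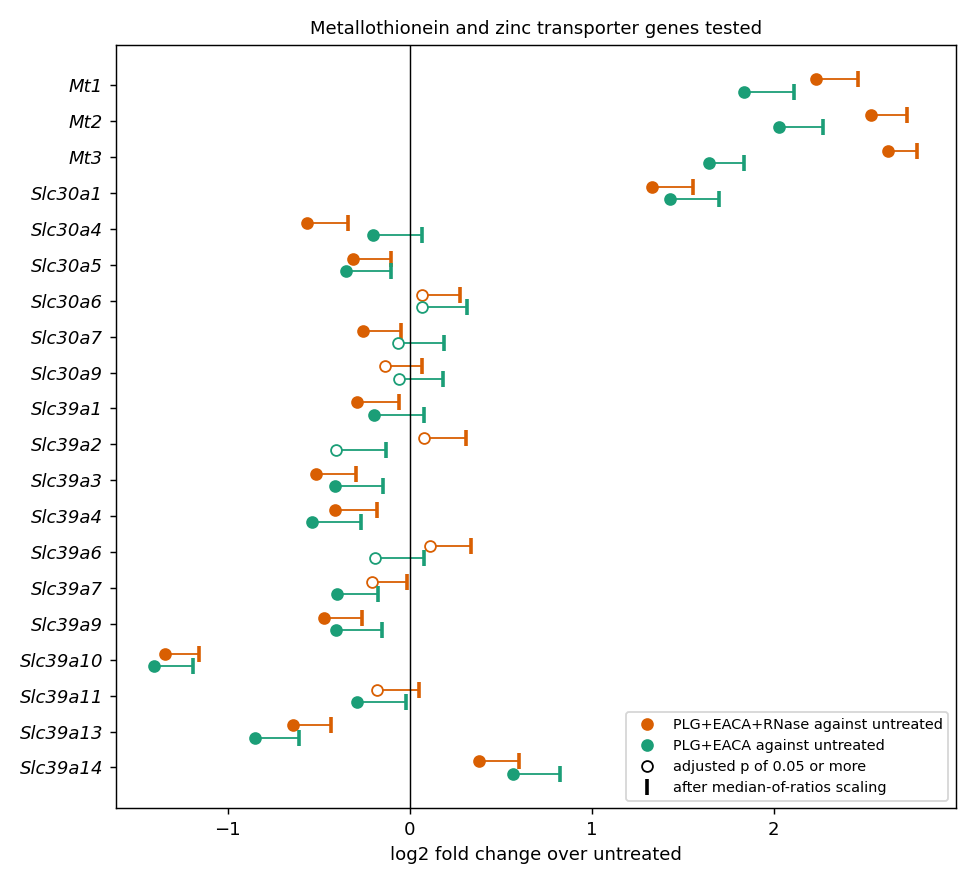
Log2 fold change over untreated cells (horizontal axis) of the 20 metallothionein and zinc transporter genes tested, for both treatments; open points did not pass, and ticks show the same value after median-of-ratios scaling. Metallothionein genes, Slc30a1 and Slc39a14 lie right of 0 and Slc39a10 and Slc39a13 left of it under both scalings, while several transporters close to 0 change side.

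Other genes of the metal response were counted from a list that holds reported MTF-1 targets and genes of glutathione and heme metabolism, many of which also respond to NRF2. Of 13 genes tested, Mtf1 included, 10 rose and 2 fell with PLG+EACA+RNase and 9 rose and 3 fell with PLG+EACA. The shares of all genes called were 16% and 14.9% higher and 48.4% and 53.4% lower. The medians over the 13 were 0.66 with PLG+EACA+RNase and 0.72 with PLG+EACA on the log2 scale. After median-of-ratios scaling 11 rose and 2 fell with PLG+EACA+RNase and 10 rose and 2 fell with PLG+EACA. With that scaling 28.4% and 27.3% of all genes were called higher and 26.4% lower with each treatment. Hmox1, which encodes heme oxygenase 1, rose with both: it averaged 1855 ± 245 FPKM with PLG+EACA+RNase, 1296 ± 236 with PLG+EACA and 450.1 ± 44.7 in untreated cells. Hmox1 was higher with PLG+EACA+RNase than with PLG+EACA by 0.53 on the log2 scale (limma adjusted p = 0.0228). Txnrd1, the cytosolic thioredoxin reductase gene, averaged 325 ± 16 FPKM with PLG+EACA+RNase, 325 ± 29 with PLG+EACA and 167 ± 12 in untreated cells, and Gclm, the modifier subunit of glutamate-cysteine ligase, averaged 79.0 ± 5.7 with PLG+EACA+RNase, 82.5 ± 6.7 with PLG+EACA and 49.8 ± 4.2 in untreated cells. Pgf, a growth factor gene reported as an MTF-1 target, and Cebpa fell with both treatments (limma log2 changes of -1.11 and -0.94 for Pgf, -0.57 and -0.70 for Cebpa). From a list of zinc-permeable channels, metal carriers and the zinc-binding calprotectin genes S100a8 and S100a9, 6 genes were tested. Of these 6, 0 rose, while 2 fell with PLG+EACA+RNase and 4 with PLG+EACA. Of all genes 16% and 14.9% were called higher and 48.4% and 53.4% lower. After median-of-ratios scaling 2 were higher and 1 lower with PLG+EACA+RNase, and 0 higher and 1 lower with PLG+EACA, so the direction of this count rests on the scale. Under that scaling 28.4% and 27.3% of all genes were called higher and 26.4% lower with each treatment. S100a9 ranged from 10.01 to 25.0 FPKM with PLG+EACA+RNase, 9.65 to 30.8 with PLG+EACA and 4.12 to 23.8 in untreated cells, overlapping throughout and not called. Slc11a2, which encodes the divalent metal transporter DMT1, was among those that fell with both, at 25.2 ± 2.0 FPKM with PLG+EACA+RNase, 21.4 ± 2.6 with PLG+EACA and 36.4 ± 0.70 in untreated cells.

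The genes with the pattern most like each member over the 12 libraries were named by Pearson correlation of log2(FPKM + 0.5) among 9488 other named genes, as a description; the 12 points share the 3 groups, so each r holds the differences between groups as well as those within them. For Mt1 they were Csrnp1, Cd247, Tgm2, Prdx6 and Ankrd33b (r of 0.992 to 0.986), for Mt2 Rars, Zswim4, Dnajb4, Dennd2a and Igsf8 (0.975 to 0.969), and for Mtf1 Fam83h, Por, Arhgap10, Mapre2 and Llgl2 (0.972 to 0.964). For Slc30a1 they were Mafk, Plk2, Daam1, Txnrd1 and Treml4 (0.992 to 0.98997), for Slc39a10 Specc1l, Ptp4a2, Farp2, Abcb8 and Chpf (0.985 to 0.981), and for Slc39a14 Sept11, Csf1, Usp47, Sema4d and Slc40a1 (0.970 to 0.960). Of all genes tested, Mt1 was number 10 in nearness to Mt2 (r = 0.965), while Mt2 was number 71 for Mt1. Slc30a1 was number 41 for Slc39a14 (r = 0.934), while Slc39a14 was number 281 for Slc30a1. Mtf1 was number 1291 for Mt1 and 1615 for Slc30a1. Mtf1 had r of 0.688 with Mt1, 0.587 with Slc30a1 and -0.544 with Slc39a10, and Slc39a10 had -0.964 with Slc30a1.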

How the data were processed

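Total RNA libraries of 12 samples in 3 groups of 4 were compared. The authors deposited 1 table of FPKM values, 1 column per library, with each gene's coordinates and length. FPKM times length in kilobases summed to 1000000 in every library. The values were thus scaled to each library's total, with no further scaling between libraries. The submitters' processing notes name the tools DESeq2 1.40.2, STAR 2.7.11a, featureCounts 2.0.6, FastQC 0.12.1 and cutadapt 4.5 and the build GRCm38.p6, without saying which step each served; a directional kit was used per the labels' protocols. Reads were recovered by finding the depth at which FPKM times length was whole (within 0.1 for 100.0% of the values precise enough to tell); they cover counting error only and were not tested.

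The 11165 genes at 1 FPKM or more in 4 or more libraries were tested on log2(FPKM + 0.5) with limma 3.58.1 in R 4.3.3, group means of all 12 libraries in 1 model, eBayes with trend, two-sided, Benjamini-Hochberg adjustment over all genes tested, threshold 0.05. Every adjusted p and interval is from this model unless another setting is named. The fit was checked on simulated data. The members, lists and tests were chosen with earlier results of these data known. Genes named are the members, all tested metallothionein and zinc transporter genes, up to 4 genes of each other list by smallest p, the 5 most like each member, and neighbours within 50 kb of Mt1 or Mt2; Pgf, Cebpa, Slc39a8, S100a9 and the named markers of other cell types were chosen after their values were seen. Alternatives were pseudocounts of 0.1 and 1, no filter, median-of-ratios scaling, Gm26917 left out, replicate blocks, only 2 groups in the fit, a robust fit and each library left out. Motif windows were RefSeq's, of GRCm38.p6.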

Additional observations from a re-analysis of the deposited data

Results flagged for a closer look

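In 63 groups of 4 libraries (21 genes by 3 groups), 4 had a library whose gap to the next, divided by the range of its group, exceeded the 95% critical value of the Dixon test; chance gives about 1 in 20 such groups. Mtf1 was 5.78 FPKM in PLG+EACA replicate 4, against 7.17 to 7.35 in the other libraries of that group. Slc39a13 was 3.83 FPKM in PLG+EACA+RNase replicate 3, against 2.67 to 2.86 in the other 3. Slc39a9 was 4.499 FPKM in PLG+EACA replicate 3, against 4.10 to 4.14. Slc39a2 was 23.5 FPKM in untreated replicate 4, against 24.9 to 25.1.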

How the results depend on the processing

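Against untreated cells, the log2 changes of Mt1, Mt2, Slc30a1, Slc39a10 and Slc39a14 with both treatments, and of Mtf1 with PLG+EACA+RNase, kept their direction and their side of the threshold under all 22 alternatives (the last, which left out replicate 4 of both treatments, was chosen after seeing the data). Mtf1 with PLG+EACA was 0.36 after median-of-ratios scaling with or without a replicate block, 0.18 without replicate 4 of both treatments and 0.074 to 0.18 with 1 library left out. That scaling moved the counts of all genes with PLG+EACA to 3050 higher and 2942 lower (3091 and 2950 with the replicate block), and with PLG+EACA+RNase to 3169 and 2953 (3249 and 2950); the zinc transporter and metallothionein genes with PLG+EACA moved to 8 higher and 4 lower, with or without the block. With no filter 3306 genes were higher with PLG+EACA+RNase. Between the treatments, only the 2 groups in the fit gave 425 genes higher and 310 lower and 0 zinc genes lower, against 1349, 975 and 2, and Mtf1 at 0.27 did not pass (adjusted p = 0.11). With no filter 636 genes and 1 zinc gene were lower and Mtf1 at 0.27 did not pass (limma adjusted p = 0.0831). Leaving out Gm26917 gave 1 zinc gene lower, and the replicate block 4 higher. Slc39a14 between the treatments was -0.22 after median-of-ratios scaling, with or without the block, and Slc30a1 was -0.17 without replicate 4 of both treatments. With 1 library left out there were 569 to 1922 genes higher and 423 to 1306 lower, lowest without PLG+EACA+RNase replicates 3 (569 and 423) and 2 (574 and 456), and 766 higher without PLG+EACA replicate 4. The zinc genes were then 2 to 4 higher and 1 to 2 lower, Mtf1 0.19 to 0.34, Slc30a1 -0.18 to -0.061 and Slc39a10 -0.0073 to 0.13. The causes were not tested.

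The labels do not say whether replicate numbers pair the libraries, and the correlations do not settle it. Same-numbered libraries of different groups correlated at -0.18 to 0.33 in their deviations from the group means, 3 of 12 pairs above 0.1. Libraries with different numbers correlated at -0.34 to 0.12. The highest value, 0.33, was between replicate 4 of PLG+EACA+RNase and replicate 4 of PLG+EACA. The replicate block alone, with no scaling, changed no call of the 6 genes. Depth limits Mt2 in untreated cells, with as few as 13 reads in a library, and Slc39a10 in treated cells, with as few as 62.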

Other observations

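Metallothioneins also bind copper, and genes of copper handling were counted. Of 8 copper handling genes tested, 0 rose and 5 fell with PLG+EACA+RNase, and 1 rose and 6 fell with PLG+EACA. Among all genes 16% and 14.9% were called higher and 48.4% and 53.4% lower, and 8 genes are few for such a comparison. After median-of-ratios scaling 2 were higher and 1 lower with PLG+EACA+RNase, and 1 higher and 1 lower with PLG+EACA. Under that scaling 28.4% and 27.3% of all genes were called higher and 26.4% lower with each treatment. Slc31a1, the copper importer gene, was lower under both scalings and averaged 16.1 ± 1.4 FPKM with PLG+EACA+RNase, 15.2 ± 0.70 with PLG+EACA and 23.9 ± 1.2 in untreated cells (mean ± SD, n = 4). Sod1, copper-zinc superoxide dismutase, averaged 24.4 ± 1.1 FPKM with PLG+EACA+RNase, 21.7 ± 1.0 with PLG+EACA and 25.2 ± 0.80 in untreated cells.

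Metallothionein genes are also known to respond to glucocorticoids, IL-6 and heat shock, and lists for these were counted. Of 6 glucocorticoid-responsive genes tested, 2 rose and 3 fell with PLG+EACA+RNase and 2 rose and 4 fell with PLG+EACA. Of all genes 16% and 14.9% were called higher and 48.4% and 53.4% lower. After median-of-ratios scaling 2 rose and 2 fell with PLG+EACA+RNase, and 2 rose and 1 fell with PLG+EACA. Under that scaling 28.4% and 27.3% of all genes were called higher and 26.4% lower with each treatment. Those that rose were Sgk1, a kinase gene, at 40.5 FPKM on average with PLG+EACA+RNase, 44.0 with PLG+EACA and 36.1 in untreated cells, and Nr3c1, the glucocorticoid receptor gene, at 13.1 with PLG+EACA+RNase, 15.3 with PLG+EACA and 11.98 in untreated cells. Tsc22d3, the GILZ gene, averaged 10.1 ± 2.3 FPKM with PLG+EACA+RNase, 6.48 ± 1.4 with PLG+EACA and 23.1 ± 1.7 in untreated cells. Of 8 IL-6 and STAT3 pathway genes, 5 rose and 3 fell with PLG+EACA+RNase and 5 rose and 2 fell with PLG+EACA. The shares of all genes called were 16% and 14.9% higher and 48.4% and 53.4% lower. After median-of-ratios scaling 5 rose and 2 fell with each treatment, where 28.4% and 27.3% of all genes were called higher and 26.4% lower. Il6 averaged 82.6 ± 29.1 FPKM with PLG+EACA+RNase, 163 ± 42 with PLG+EACA and 17.4 ± 2.9 in untreated cells, and was lower with PLG+EACA+RNase than with PLG+EACA (limma log2 -1.02, adjusted p = 0.015). Of 11 heat shock genes, 5 rose and 1 fell with PLG+EACA+RNase against untreated cells, where 16% of all genes were called higher and 48.4% lower. With PLG+EACA 3 rose and 4 fell against untreated cells, where 14.9% of all genes were called higher and 53.4% lower. After median-of-ratios scaling 8 rose and 1 fell with PLG+EACA+RNase, where 28.4% and 26.4% of all genes were called. That scaling gave 4 higher and 1 lower with PLG+EACA, where 27.3% and 26.4% were called. With PLG+EACA+RNase against PLG+EACA 5 rose and 0 fell, where 12.1% of all genes were called higher and 8.73% lower, among them Hspa1a, the inducible HSP70 gene, at 25.9 ± 9.6 against 5.87 ± 2.2 FPKM; its near-identical copy Hspa1b makes that value uncertain. The part of these pathways in the metallothionein levels was not tested.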
